A study of Sus scrofa with 15 samples.

Results

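Backfat, the layer of fat under the skin of a pig's back, was compared between months 1 and 5 in the Landrace and Taihu breeds, and 32 array positions were brighter at month 5 in both. They are 32 of the 140 distinct positions left once the first 12 positions of each printed block, taken for shared spots, are set aside. The members were chosen by their values on 2 arrays, 1 per breed, that set month 5 (Cy5) directly against month 1 (Cy3). A position was taken if its background-subtracted, median-centred log2 ratio of month 5 over month 1, averaged over 4 printed copies, was 0.3 or more on both arrays. The rule also left out 6 positions by name, of which 0 met the threshold. On the Landrace array alone 47 positions reached 0.3, and on the Taihu array alone 44 did. In the opposite direction, 29 positions were at -0.3 or below on both arrays.

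The series holds 15 two-colour arrays of 10 RNA samples, 1 for each of 2 breeds at each of 5 months, and each RNA sample lies on 3 arrays. Landrace and Taihu were set against each other at each month on 5 arrays, with Landrace always in Cy3. Each breed also has a closed loop of 5 arrays: 4 with the later of 2 adjacent months in Cy3 and the earlier in Cy5, and the array of month 5 over month 1 with month 5 in Cy5. The labels give no treatment, sex or genotype beyond the breed, nor how many animals gave each RNA sample, so the spread between animals is not measured. The files pair no position with a gene name. The positions are therefore given by code (row of blocks, printed row, column), no tissue marker could be checked against the label, and no role can be given to any of them.

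Subcutaneous backfat is a white fat depot that stores triglyceride and releases fatty acids. After birth it thickens as fat cells fill with lipid and as further fat cells form from precursors. Landrace is bred as a lean pig and the Taihu breeds are fat pigs, and backfat depth is a usual measure of that difference. RNA from such tissue comes from fat cells, vessels, connective tissue and immune cells together, so fewer cells of a type and less RNA per cell cannot be told apart.

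The 16 members in the first row of blocks were Sr01R03C02, Sr01R04C03, Sr01R04C05, Sr01R04C06, Sr01R04C08, Sr01R04C09, Sr01R05C02, Sr01R06C01, Sr01R07C01, Sr01R07C05, Sr01R07C06, Sr01R08C02, Sr01R08C06, Sr01R09C06, Sr01R09C08 and Sr01R09C09. The 16 in the second row were Sr02R02C06, Sr02R04C04, Sr02R04C06, Sr02R05C01, Sr02R05C05, Sr02R05C08, Sr02R06C08, Sr02R07C01, Sr02R07C07, Sr02R08C01, Sr02R08C02, Sr02R08C03, Sr02R09C01, Sr02R09C02, Sr02R09C03 and Sr02R09C09. Their median log2 brightness over all arrays was 11.50, against 10.47 at the 108 other positions. Both channels lay at least 2 background SDs above background on every array at 30 members. At 3 members some of the 120 spot readings were at the scanner's ceiling, which compresses ratios: 37 at Sr01R04C09, 8 at Sr02R05C01 and 1 at Sr02R08C03.

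The choosing values themselves ran from just above the threshold to log2 3.81. The lowest members by the smaller of both values were Sr02R05C05, at 0.48 in Landrace and 0.31 in Taihu, and Sr01R09C09, at 0.33 and 0.47. Just outside lay Sr01R07C04, at 0.27 and 0.50, and Sr01R09C04, at 0.26 and 0.26. The scatter of both arrays shows a continuous spread across the threshold, with no gap that separates members from other positions.

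**Figure D1:**
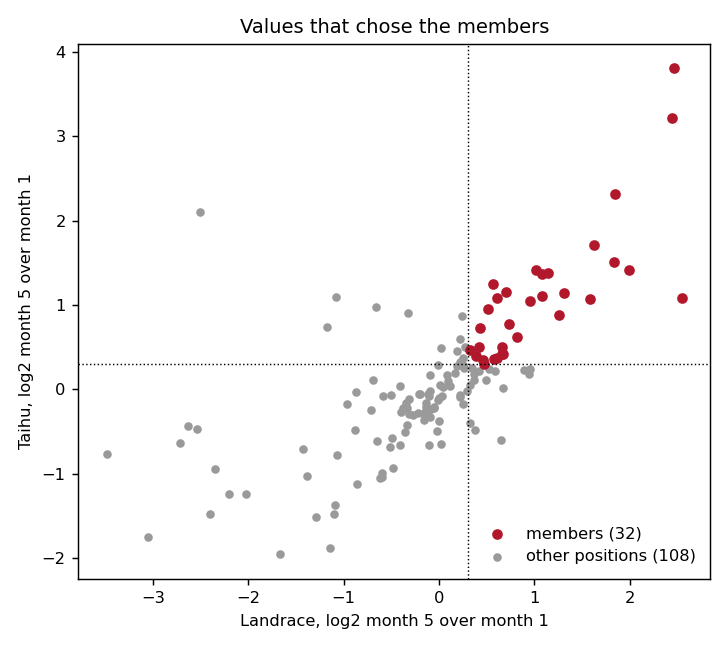
Log2 ratio of month 5 over month 1 that chose the members, Landrace on the horizontal and Taihu on the vertical axis, 1 point per position (mean of 4 copies); dotted lines mark the threshold of 0.3. The 32 members fill the upper right corner, and Sr01R04C03 and Sr01R04C06 lie farthest out, at 3.81 and 3.22 in Taihu.

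The 2 positions with the largest mean change, Sr01R04C03 and Sr01R04C06, were measured at similar values in Landrace and at larger ones in Taihu. At Sr01R04C03 the background-subtracted signal was 2821 for month 5 and 403 for month 1 on the Landrace array, and 11912 for month 5 and 652.5 for month 1 on the Taihu array. At Sr01R04C06 it was 2192 and 322 on the Landrace array and 6107 and 492 on the Taihu array. Neither had a reading at the ceiling, and both were bright enough to be detected in all 30 channel readings.

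Next came Sr01R05C02, with choosing values of log2 1.84 in Landrace and 2.32 in Taihu, and Sr02R04C06, with 2.55 and 1.08. Sr02R04C06 was thus the member with the largest value in Landrace but not in Taihu. Sr01R04C09 had 2.00 and 1.42, and Sr02R05C01 had 1.84 and 1.51. Both of these are the members with several readings at the ceiling, so their ratios are compressed where the brighter channel was at it. Under normexp background correction and loess normalization, which all values from here on use, 25 of the 32 members and 1 other position still had 0.3 or more on both arrays.

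Because month 5 was in Cy5 on both choosing arrays, a position that reads brighter in Cy5 whatever the sample passes the rule more easily. The loop arrays allow a check, since the 4 arrays of adjacent months carry the later month in Cy3. Added up, these 4 steps give the change from month 1 to month 5 less the dye effect of 4 arrays, where the direct array holds the change plus the dye effect of 1, so the sum is pulled further by the dye than the direct value. Over the members, the direct arrays had a median of log2 0.65 in Landrace and 0.86 in Taihu. The summed steps had a median of 0.43 in Landrace and 0.15 in Taihu, against -0.17 and -0.31 at the other positions. Both member medians turned negative under centring on the 12 shared positions of each block (-0.44 and -1.01), a setting that moved the other positions as well (-1.15 and -1.61), and the Taihu one did so under the processing of the rule (-0.11, others -0.60). The median sum of the members lay above that of the other positions under each of the 5 scalings run. The sum ends on the same month 1 and month 5 RNA samples as the choosing arrays, so it measures those samples again. A higher sum at the members, here and member by member below, is therefore in part favoured by the choice.

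Member by member, the summed steps were above 0 in Landrace at 23 of 32 members, against 45 of 108 other positions. In Taihu they were above 0 at 18 of 31 members, against 40 of 107. Sr02R05C08 has no value on the Taihu array of months 2 and 3, which leaves 31 members there. In both breeds at once the sums were above 0 at 16 members (51.6%) and below 0 at 7 (22.6%), against 29.9% and 50.5% of the other positions. At the remaining members the signs of the 2 sums differed.

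The dye effect of a position was taken as the sum around its closed loop divided by the 5 arrays. That sum also holds the error of the arrays, which 1 loop cannot tell from the dye. It includes the choosing array of the breed, so a higher dye effect at the members is in part favoured by the choice. Over members the dye effect had a median of log2 0.09 in the Landrace loop and 0.15 in the Taihu loop. At the other positions it was 0.01 and 0.05. It was above 0 in both loops at 22 of 31 members and 48 of 107 other positions. With it removed, the median change over members was 0.69 in Landrace and 0.73 in Taihu, against -0.12 and -0.05 at the other positions. This left 23 of 31 members with a change of 0.3 or more in both breeds, and 30 of 31 above 0 in both, as against 2 and 30 of 107 other positions. These counts use the choosing arrays and are a description. Sr02R05C05, chosen here after its values were seen, had the largest dye effect of the members in the Landrace loop. Its direct values were 0.50 in Landrace and 0.46 in Taihu, its summed steps -1.57 and -1.60, and its dye effect 0.41 in each loop, which leaves 0.08 and 0.05. On all 5 breed arrays it also read higher in the Cy5 sample, with Landrace minus Taihu between -0.55 and -0.41.

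**Figure D2:**
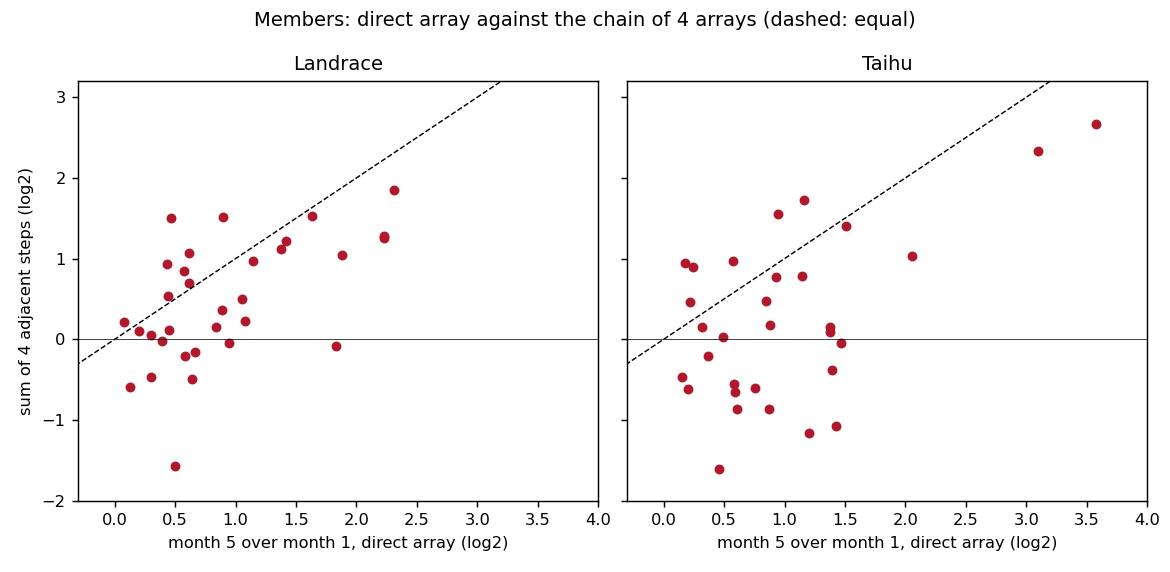
For each member, the log2 ratio of month 5 over month 1 on the direct array (horizontal) against the sum of the 4 adjacent steps from the other loop arrays (vertical), Landrace left and Taihu right; the dashed line marks equal values. Most points lie below the line in both breeds, and Sr02R05C05 is the lowest in each panel, at -1.57 and -1.60.

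Over all 15 arrays with a dye term, the median fitted level of the members was low at month 1 in Landrace and at months 1 and 2 in Taihu, and nearly level after that. Median levels at months 1 to 5, on a log2 scale where the mean of the 10 RNA samples is 0, were -0.55, 0.05, 0.17, 0.18 and 0.16 in Landrace. In Taihu they were -0.46, -0.37, 0.18, 0.23 and 0.26. The other positions had medians between -0.10 and 0.13. Month 1 was the lowest of the 5 months at 26 of 31 members in Landrace, against 24 of 107 other positions. In Taihu the lowest month was month 1 at 16 members and month 2 at 12, against 16 and 29 other positions. The highest month varied more. In Landrace it was month 3 at 11 and month 5 at 9 members, against 13 and 31 other positions. In Taihu it was month 5 at 15 and month 3 at 8 members, against 8 and 16 other positions. The choosing arrays, which set month 5 above month 1, are in this fit, so both the low level at month 1 and the high level at month 5 are favoured by the choice.

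**Figure D3:**
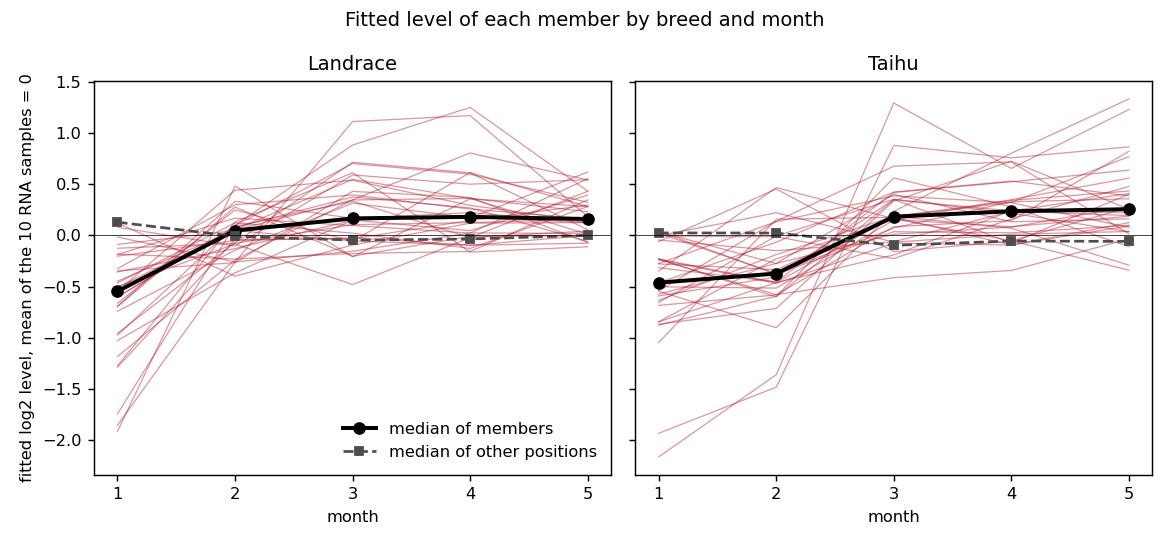
Fitted log2 level of each member (thin lines) at months 1 to 5 in Landrace (left) and Taihu (right), from all 15 arrays with a dye term. The member median (solid) is 0.05 or more from month 2 on in Landrace and 0.18 or more from month 3 on in Taihu, while the median of the other positions (dashed) stays between -0.10 and 0.13.

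The measured steps show the same months without the choosing arrays. The median step from month 1 to 2 over the members was log2 0.52 in Landrace, and the steps after it were 0.11, -0.10 and -0.10. In Taihu the 4 steps were 0.04, 0.38, -0.13 and -0.09. The other positions had a median of -0.08 at the first Landrace step and -0.24 at the second Taihu step. The size of these 2 steps depended on the scaling. Centring on shared positions gave members 0.38 in Landrace (others -0.23) and -0.0003 in Taihu (others -0.54). The remaining scalings gave members 0.52 to 0.55 in Landrace and 0.34 in Taihu. A constant dye effect shifts all 4 steps of a position alike, so their order is free of it. The step from month 1 to 2 was the largest of the 4 at 26 of 32 members in Landrace, against 25 of 108 other positions, and the step from month 2 to 3 was the largest at 16 of 31 members in Taihu, against 36 of 107. Under the other scalings these counts were 22 to 25 in Landrace and 15 to 18 in Taihu. The Landrace and Taihu samples of month 1 are also on the choosing arrays, so a large first step is in part favoured by the choice. The measured Taihu step from month 2 to 3 rests on 1 array, on which members were dimmer than Taihu on the breed arrays. The extent differed. Its signals for months 2 and 3 were 1192 and 3961 against 5164 and 16829 at Sr01R09C08. At Sr02R05C01 they were 27686 and 52439 against 36227 and 64389. These 2 positions were picked after their values were seen, and the cause was not tested.

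**Figure D4:**
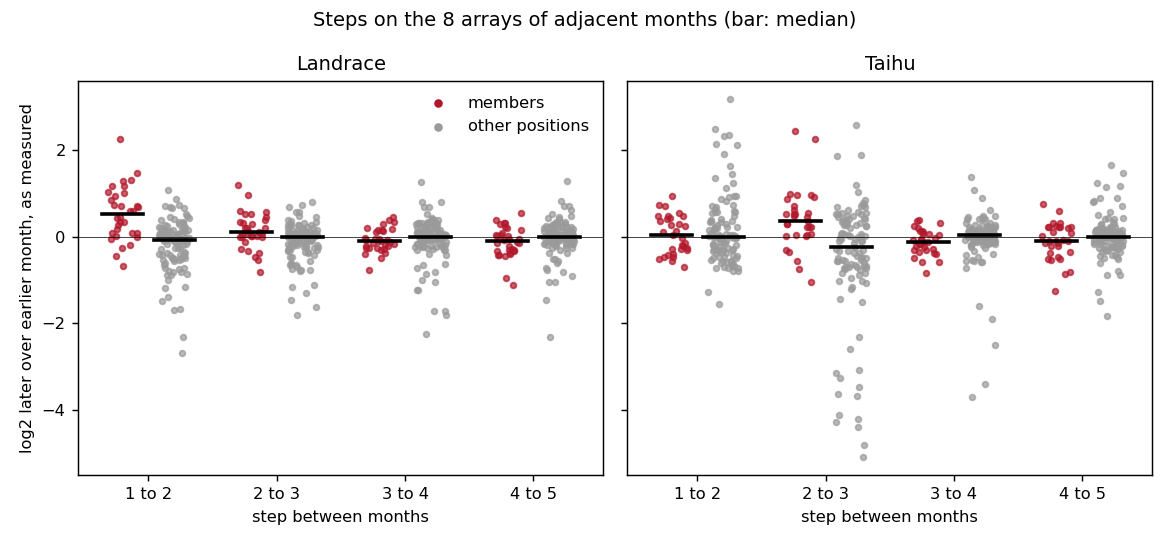
Log2 ratio of the later over the earlier month on the 8 arrays of adjacent months, Landrace left and Taihu right, 1 point per position; bars are medians over members (red) and other positions (grey), and the dye effect is not removed. The member median is highest at the first step in Landrace (0.52) and at the second step in Taihu (0.38).

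Whether the 4 steps of a position were unequal was tested with limma on the 13 arrays that did not choose the members, with Benjamini-Hochberg adjustment over 138 positions and a threshold of 0.05. Equal steps would be a steady change over the months. With both breeds fitted together, 0 of 31 members passed (0% of all 138 positions), and the lowest adjusted p was 0.169. At an unadjusted p under 0.05 there were 8 members and 21 positions in all. No single order of steps shared by both breeds was therefore detected by this fit. The error of this fit also holds differences in course between the breeds.

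Within a breed the error is the disagreement between arrays of the same RNA samples, with 4 residual degrees of freedom, and does not cover animals. On that error the steps were unequal at 18 of 31 members in Landrace, where 33.3% of all positions were called, and at 19 in Taihu, where 47.1% were called. The members' shares are 58.1% and 61.3%. The month 1 samples are also on the choosing arrays, so a large first step, and with it unequal steps, is in part favoured by the choice. Both tests called 14 of the 31 members, against 36 of all 138 positions (26.1%). The Landrace count depended on the array of Landrace months 1 and 2, without which it was 8. Counts without an array, here and below, are mostly of members alone. They do not show whether the other positions changed alike. The Taihu count was 7 without the array of Taihu months 1 and 2, 9 without that of Taihu months 3 and 4, 10 without that of Taihu months 2 and 3 or of Landrace months 3 and 4, and 11 without the breed array of month 2 or 3. It was also 8 or 9 when loess was replaced by a centring of each array.

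The members with the largest choosing values show these courses one by one. At Sr01R04C03 the steps from month 1 to 5 were 1.30, 1.20, -0.11 and -1.11 in Landrace, and 0.73, 2.45, -0.85 and 0.33 in Taihu. At Sr01R04C06 they were 1.48, 0.53, 0.20 and -0.95 in Landrace, and 0.47, 2.27, -0.29 and -0.11 in Taihu. At both positions the first 2 steps were positive in each breed, the largest Taihu step was that from month 2 to 3, and month 5 was below month 4 in Landrace. The last Taihu step comes from an array on which both positions were far dimmer than on others with the same RNA samples. Its signals for months 4 and 5 were 563 and 626 at Sr01R04C03 and 728 and 587 at Sr01R04C06. Taihu on the breed arrays of those months read 11136 and 11858, and 7494 and 6414. The array behind the largest Taihu step was dimmer too, though less so, and hardly at month 2 of Sr01R04C03. Its signals for months 2 and 3 were 1139 and 9804 at Sr01R04C03 and 384 and 3729 at Sr01R04C06. On the breed arrays of months 2 and 3 Taihu read 1187 and 19492, and 1015 and 9220. The cause was not tested. Limma's adjusted p for unequal steps was 0.000425 in Landrace and 0.000149 in Taihu at Sr01R04C03, and 0.00176 and 0.000819 at Sr01R04C06. These calls kept their side of the threshold without any 1 of the 13 arrays.

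Sr01R05C02 had steps of 1.17, 0.01, 0.14 and 0.22 in Landrace and -0.50, 0.92, 0.39 and 0.24 in Taihu. Its first step was positive in Landrace and negative in Taihu. Its steps were unequal in each breed (limma, adjusted p = 0.0120 and 0.00775), and the calls were lost without the array of months 1 and 2 of the breed in question, the Landrace one also without the breed array of month 2. Sr02R04C06 had the largest Landrace step of any member, 2.27 from month 1 to 2, followed by -0.82, 0.38 and 0.02. In Taihu its steps were 0.36, 0.23, -0.21 and -1.24. Both positions were also dimmer on the array of Taihu months 4 and 5 than Taihu was on the breed arrays of those months. The signals were 1044 and 1093 against 9455 and 13160 at Sr01R05C02. At Sr02R04C06 they were 1802 and 645 against 23386 and 21119. The Landrace call of Sr02R04C06 (adjusted p = 0.00245, limma) was lost without the array of Landrace months 1 and 2, and its Taihu call (0.0279) was lost without any 1 of 9 arrays.

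The members with several readings at the ceiling had no step above 0.88 in size. Sr01R04C09 had steps of 0.72, 0.35, 0.30 and -0.32 in Landrace and -0.03, 0.88, 0.13 and -0.82 in Taihu (adjusted p = 0.0101 and 0.00294, limma). Its Landrace call was lost without the array of Landrace months 1 and 2. Sr02R05C01 had 0.19, 0.02, -0.39 and 0.09 in Landrace and -0.55, 0.48, -0.50 and -0.51 in Taihu, with an adjusted p of 0.132 in Landrace and 0.0475 in Taihu (limma). The Taihu call was lost without any 1 of 9 arrays, and the breeds' difference in it was not past the threshold either (adjusted p = 0.0537). Its dye effect, 0.38 and 0.50, was larger than that of Sr01R04C09, at 0.17 and 0.24. Both were also dimmer on the array of Taihu months 4 and 5 than Taihu was on the breed arrays of those months. The signals were 10759 and 3781 against 65103 and 55821 at Sr01R04C09. At Sr02R05C01 they were 10602 and 4651 against 62609 and 54716. Not every member was dimmer to this extent: Sr02R04C04 read 37634 and 16754 against 40887 and 30033.

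The members with the smallest p in the fit of both breeds were Sr02R04C04, Sr02R08C01, Sr02R07C07, Sr01R07C05, Sr01R09C09 and Sr01R04C09, with adjusted p between 0.169 and 0.229. Sr02R04C04 had steps of 1.04, 0.59, -0.19 and -0.32 in Landrace and 0.12, 0.98, -0.39 and -0.53 in Taihu, with the first 2 steps positive and the last 2 negative in both breeds. Sr02R07C07 had 0.94, 0.10, -0.26 and -0.08 in Landrace and 0.42, 0.30, -0.18 and -0.51 in Taihu. Taken by breed, the steps of Sr02R04C04 were unequal at limma's adjusted p = 0.00245 in Landrace and 0.000819 in Taihu, and those of Sr02R07C07 at 0.00363 and 0.0117. The calls of Sr02R07C07 were lost without the array of months 1 and 2 of that breed. In both of these the dye-corrected change to month 5 was positive in each breed, at 1.33 and 0.74 for Sr02R04C04 and 0.63 and 0.40 for Sr02R07C07.

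Sr02R08C01 had steps of 0.44, -0.01, -0.29 and -0.29 in Landrace and 0.25, 0.03, -0.59 and -0.85 in Taihu. As measured, every step after the first was near or below 0 in both breeds, and the sums were -0.15 and -1.16 against direct values of 0.66 and 1.20. With its dye effect of 0.16 and 0.47 removed, the change to month 5 was 0.50 in Landrace and 0.73 in Taihu. A constant dye effect would be the same in both loops, so the dye values here also hold array error. Sr01R07C05 had 0.33, 0.30, -0.37 and -0.31 in Landrace and 0.94, -0.30, -0.58 and -0.10 in Taihu, so that its largest Taihu step was the first, not that from month 2 to 3 as at 16 of 31 members. Sr01R09C09 was lower in the first step in both breeds, with -0.67, 0.12, 0.11 and -0.15 in Landrace and -0.25, 0.38, 0.07 and 0.26 in Taihu. Its dye-corrected change to month 5 was -0.01 in Landrace and 0.26 in Taihu.

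The breed arrays set the same month of the breeds side by side. Over the members the median of Landrace minus Taihu, in the order of months 1 to 5, was log2 -0.21, 0.29, -0.09, -0.06 and -0.17. Landrace was the higher at 23 of 32 members at month 2, and at 9, 11, 13 and 9 of them at months 1, 3, 4 and 5. Of the 108 other positions it was the higher at 56 at month 2, and at 66, 57, 55 and 63 at those months. Taihu was in Cy5 on all 5 of these arrays, so a Cy5-bright position reads lower in Landrace at every month, but the difference between months is free of that. Under centring on shared positions the month 2 median was 0.01, with 17 of 32 members above 0, and stayed the highest of the 5 months.

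**Figure D5:**
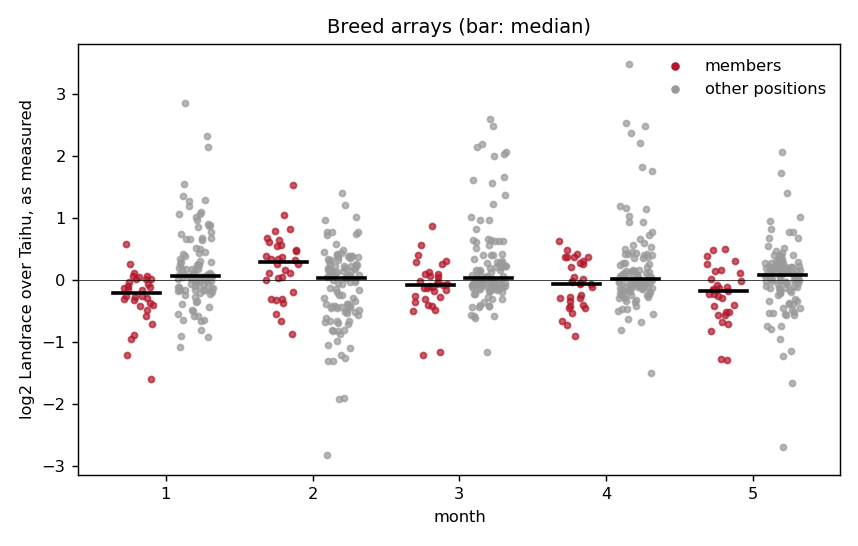
Log2 of Landrace over Taihu on the breed array of each month, 1 point per position; bars are medians over members (red) and other positions (grey), and the dye effect is not removed. The member median is above 0 at month 2 alone (0.29), and the medians of the other positions lie between 0.02 and 0.08.

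Whether the breed difference varied between months was tested on the same 13 arrays. It varied at 20 of 31 members, where 51.4% of all 138 positions were called, and the members' share was 64.5%. The count was 12 without the Landrace or the Taihu array of months 1 and 2, and 13 without the breed array of month 2. It was 13 under the processing of the rule and 11 under centring on shared positions. Among months 2, 3 and 4, whose RNA samples lie on none of the choosing arrays, it varied at 16 of 31 members, against 41.3% of all positions. That contrast was added after the data were seen, and its estimates and error come from the fit of all 13 arrays, those of months 1 and 5 included. Its count was 6 without the breed array of month 2, 7 without that of month 3, 9 without the array of months 3 and 4 of Landrace or of Taihu, and 10 without that of months 2 and 3 of either breed or the breed array of month 4. Arrays of months 1 and 5 moved it too, to 11 without the breed array of month 1 and 20 without that of month 5. It was 7 to 9 where loess was replaced by a centring of each array.

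Single contrasts, also added after the data were seen, give the direction of this variation. Landrace minus Taihu was higher at month 2 than at month 1 at 18 of 31 members, against 20.3% of all positions. It was lower at 2 members, against 33 of all 138 positions. The month 1 samples of both breeds are also on the choosing arrays, so this contrast is not free of the choice. The median difference of differences was log2 0.54 over the members and -0.10 over the other positions. Landrace minus Taihu was higher at month 2 than at month 3 at 12 members, against 17.4% of all positions, with medians of 0.35 and -0.07. It was lower at 4 members, against 39 of all 138 positions. Both were passed in this direction at 10 of the 31 members and at 15 of all 138 positions (10.9%). The first count was 9 without the breed array of month 1, where 12 of all 138 positions were called. The second was 7 without the breed array of month 2 or of month 3. It was also 7 under centring on shared positions, where 9 of all 138 positions were called.

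The steps behind this were set against each other within each breed. The Landrace step from month 1 to 2 was above that from month 2 to 3 at 9 of 31 members, against 10.1% of all positions. It was below it at 3 members, against 18 of all 138 positions. Landrace month 1 is also on a choosing array, so a large first step is in part favoured by the choice. The Taihu step from month 2 to 3 was above that from month 1 to 2 at 10 members, against 15.9% of all positions. It was below it at 4 members, against 34 of all 138 positions. The Landrace count was 2 without the array of Landrace months 1 and 2 and 1 without that of months 2 and 3. The Taihu count was 3 without the array of Taihu months 1 and 2, 6 without that of months 2 and 3, and 16 without the array of months 4 and 5 of either breed or the breed array of month 5. It was 6 under centring on shared positions.

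Among the members with the largest choosing values, the fitted breed difference moved most from month 1 to 2 at Sr02R04C06 and Sr01R05C02, ahead of Sr01R04C06 at log2 1.46 (SE 0.19). On the breed arrays alone the order differs, with Sr01R04C06 ahead of both. On the breed arrays of months 1 to 5, Landrace minus Taihu at Sr02R04C06 was -1.60, 0.12, -1.16, -0.29 and -0.17. From month 1 to month 2 the fitted difference moved by log2 1.77 (SE 0.24, limma, adjusted p = 0.00118). At Sr01R05C02 the breed arrays gave -0.88, 0.83, -0.42, -0.66 and -1.27, and the fitted move was 1.64 (SE 0.17, adjusted p = 0.000507). In both, Taihu was the higher at month 1 and Landrace at month 2.

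Sr01R04C03 had 0.01, 1.04, -0.36, 0.37 and -1.30 on the breed arrays and Sr01R04C06 had -0.30, 1.52, -0.09, 0.36 and -0.52. Both were highest in Landrace relative to Taihu at month 2 and lowest at month 5. At month 2 the fitted difference was above that at month 3 by log2 1.28 (SE 0.13, limma, adjusted p = 0.000468) at Sr01R04C03 and by 1.56 (SE 0.18, adjusted p = 0.000788) at Sr01R04C06, a contrast between RNA samples that lie on no choosing array, estimated from the fit of all 13 arrays. Sr01R07C05 went the other way: its breed arrays gave 0.26, -0.31, 0.12, 0.21 and -0.17, and from month 1 to 2 the fitted difference fell by 0.62 (SE 0.12, adjusted p = 0.00461). The calls between months 1 and 2 at Sr01R04C03 and Sr01R07C05 were lost without the breed array of month 1.

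No planned test was passed at 7 of the 31 members (22.6%), against 47 of the 107 other positions (43.9%). The arrays that close a ring between adjacent months and breeds, in which a dye effect cancels, give the scatter behind the tests with 1 level per RNA sample. The root mean square disagreement over the members was log2 0.27, 0.33 and 0.18 in the rings of months 1 with 2, 2 with 3 and 3 with 4, and 0.46 in the ring of months 4 and 5. Over the other positions it was 0.35, 0.50, 0.24 and 0.90. Each ring sums 4 arrays, so these values are not the scatter of 1 step or of a difference between 2 steps. The disagreement was largest in the ring of months 4 and 5, at members and at other positions.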

How the data were processed

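Per the file headers, the deposited scanner files hold, for each channel, the intensity of every spot and of the area around it, as scanned and without normalization (image software, fixed circles). Per the labels' protocols, RNAlater preserved the tissue and the dyes Cy3 and Cy5 were added to linearly amplified RNA. Each of 8 blocks has 82 positions; the first 12 were taken for shared spots and left out, which is an assumption. Of 8400 spot readings, 20 were marked by the image software and left out. Values were corrected by normexp (offset 50) and loess (span 0.3) with limma 3.58.1 in R 4.3.3, and copies were averaged. Precision is limited by the number of arrays.

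The members and lists were chosen with earlier results of these data known. Tests used limma's lmFit and eBayes on 13 arrays, with 4 residual degrees of freedom (1 level per RNA sample) or 8 (both breeds together). Described singly were the 6 members with the largest mean choosing value and the 6 with the smallest p for both breeds. In all 5 contrasts were added after seeing the data: 2 step comparisons, 2 single breed contrasts and the test over months 2 to 4. The fits were tested on simulated data. Alternatives were other scalings, ceiling and detection filters, array weights, all 15 arrays and leaving out each array.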

Additional observations from a re-analysis of the deposited data

Results flagged for a closer look

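The breed difference varied between months, by the test of the difference itself, at 20 of the 31 members tested (64.5%) and at 71 of all 138 positions (51.4%), so the count is near that of the array as a whole. Limma's adjusted p was 0.000579 at Sr01R04C03, 0.00151 at Sr01R04C06, 0.00139 at Sr01R05C02 and 0.00402 at Sr02R04C06, the members with the largest choosing values. It was 0.0167 at Sr01R04C09, 0.00788 at Sr02R04C04, 0.0304 at Sr02R07C07 and 0.0132 at Sr01R07C05. The last 4 calls each depended on single arrays: that of Sr02R07C07 was lost without any 1 of 10 arrays, that of Sr01R04C09 without any 1 of 4, that of Sr01R07C05 without any 1 of 3 and that of Sr02R04C04 without either of 2. With 1 RNA sample per breed and month, a breed difference that varies and a difference between the animals behind the samples cannot be told apart.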

How the results depend on the processing

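With both breeds fitted together, 0 members passed under every alternative. Leaving out each array in turn gave 8 to 24 members for unequal steps in Landrace, 7 to 27 in Taihu and 12 to 24 for the breed difference over months, against 18, 19 and 20. The other alternatives gave 12 to 22, 8 to 24 and 11 to 24. The Taihu steps fell to 9 under median centring, 9 under the rule's own processing and 8 under centring on shared positions, and the breed difference fell to 13 and 11 under the last 2. Over all positions the Landrace count was 29, 25 and 25 (46 as reported), the Taihu count 42, 40 and 36 (65) and the breed count 61, 42 and 40 (71). The median sum of steps was 0.57 and 0.013 in Landrace and Taihu under median centring, 0.59 and -0.11 under the rule's processing, and -0.44 and -1.01 under shared centring. The cause was not tested. The number of members was 30 under median centring, 40 under shared centring, 26 under normexp and loess, 33 without ceiling readings, 33 with the array median over all spots, 45 at a threshold of 0.2 and 22 at 0.5. The array weights stopped before their tolerance was reached. The authors' value table was not run, since no column ties its rows to positions. No paired analysis was possible because each group has 1 array. The depth behind a value is 4 spots, and ceiling readings limit 3 members.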

Other observations

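The members were not spread evenly over the printed rows. In the fourth printed row of the first row of blocks 5 of the 9 positions were members, and in the ninth printed row of the second row of blocks 4 of 9 were, against 32 of 140 overall. Both rows were picked out after their counts were seen, and whether neighbouring spots share sequence, printing plate or local background was not tested. Within the first of these rows, Sr01R04C03 and Sr01R04C06 correlated with r = 0.92 over the 13 arrays that chose no member. Those arrays share RNA samples, so the points are not independent.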
